A study of Mus musculus with 54 samples.

Results

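The results concern 6 of the 54 libraries of a study of the transcriptome after ionizing radiation: small intestine of C57B6 mice taken at 6, 7 and 8 h after 10 Gy of gamma radiation (n = 3), set against small intestine taken at 3, 4 and 5 h after the same dose (n = 3). They were chosen by the tissue and hour in the labels, with 1 library per hour, so libraries of neighbouring hours served as replicates. Every library of both windows was irradiated, and strain and dose were shared. The labels give no transgene, age or sex, do not say which stretch of the small intestine was taken, and do not say that each hour was a separate animal, so p-values measure only the spread between libraries, which may be technical. Tissue was minced in Trizol as whole pieces, with no sorting of cells. Small intestine also had an untreated library (0 h) and libraries at 1, 2 and 24 h (1 each). Large intestine, spleen and thymus had the same hours. The hour after irradiation and the time of day at which tissue was taken cannot be told apart in this design.

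The epithelium of the small intestine is renewed by stem and progenitor cells that divide in the crypts. A cell with broken DNA can stop before S phase, through p53 and its target p21 (Cdkn1a), or before mitosis, where the ATM and ATR kinases keep cyclin B and Cdk1 inactive. Transcription of cyclin B and of most spindle and kinetochore genes peaks in the G2 and M phases and depends on the MuvB complex with B-Myb and FoxM1, which reads cell cycle genes homology region (CHR) elements in their promoters, together with NF-Y, which reads CCAAT boxes. In cells that stop cycling, p53 and p21 let the DREAM complex repress the same genes. In whole tissue, fewer cells of a type and less RNA per cell cannot be told apart.

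The deposited table gave FPKM, fragment counts divided by transcript length and by the mapped total of the library, for 13611 genes, of which 11382 averaged at least 1 FPKM over the 6 libraries and were tested. The sources used here do not state total fragments. Steps between low FPKM values put the depth of the libraries at 6, 7 and 8 h at 1.288, 0.993 and 1.01 times that at 3 h, and of those at 4 and 5 h at 1.165 and 1.439 times, as rough estimates, so no counting interval can be given. The log2 values of any pair of the 6 libraries had a Pearson correlation of 0.977 to 0.985 across genes, which are not independent replicates. The labelled tissue was checked against its markers. The level was 2424, 3076 and 2529 FPKM at 6, 7 and 8 h, against 3317, 2578 and 2549 FPKM at 3, 4 and 5 h for the brush border disaccharidase Sis. The level was 3114, 1851 and 2014 FPKM at 6, 7 and 8 h, against 2860.1, 2450.1 and 3250.1 FPKM at 3, 4 and 5 h for the Paneth cell lysozyme Lyz1. Other Paneth cell markers varied more between libraries. The 14 tested markers of this type summed to 38361, 20117 and 52377 FPKM at 6, 7 and 8 h. At 3, 4 and 5 h their sum was 24191, 49083 and 35505 FPKM. The ileal bile acid binding gene Fabp6 was at or below 0.971 FPKM in all 6 libraries. Other distal markers were expressed, and the 9 that were tested summed to 1009 to 1452 FPKM over the same libraries. Of the 7 tested adipose and mesothelium markers, which come from tissue attached to the gut wall, the summed level was 112, 21.0 and 115 FPKM at 6, 7 and 8 h, against 224, 139.5 and 149 FPKM at 3, 4 and 5 h. In 5 of these 7 markers (71.4%) all 3 libraries at 6 to 8 h lay below all 3 at 3 to 5 h. The share over all genes tested was 9.51%. The adipocyte genes Cfd and Retn were listed at 0 at 7 h and at 24 h. The part of attached fat in the results below was not tested.

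Few genes passed the test between the windows. The test was limma on log2(FPKM + 1) in 1 fit of the 40 libraries of the 4 tissues, which share its estimate of the spread, with Benjamini-Hochberg adjustment over all 11382 genes, two-sided. At an adjusted p below 0.05, 5 genes were higher (0.0439%) and 2 were lower (0.0176%) at 6 to 8 h than at 3 to 5 h, and 940 had an unadjusted p below 0.05. The count of higher genes was 0 without the 6 h or the 8 h library, 1 without 7 h, 2 without 4 h, 3 without 3 h and 8 without 5 h, and the count of lower genes was 4 without 5 or 6 h and 1 without any other. With the 6 small intestine libraries alone, only Cutc and Egfl7 were called. The 5 that rose were Ccnb1, Cdca2, Cmss1, Tmed1 and Egfl7, and the 2 that fell were Cutc and Rpl34. Ccnb1 and Cdca2 act in mitosis. A weaker description, with no test, is that all 3 libraries of one window lie beyond all 3 of the other. Such genes are called separate below. That held upward for 655 of the 11382 genes (5.75%) and downward for 1082 (9.51%). The median log2 fold change over all genes tested was -0.03, and the median SD within a window was 0.18 on the log2 scale.

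Ccnb1 encodes cyclin B1, the activating partner of Cdk1 at mitotic entry (chr13:100778739-100786486, GRCm38.p6). Its level was 6.15, 5.38 and 8.09 FPKM at 6, 7 and 8 h, against 1.58, 0.869 and 1.81 FPKM at 3, 4 and 5 h. All 3 libraries at 6 to 8 h stood well above all 3 at 3 to 5 h. The means were 6.54 ± 1.40 FPKM at 6 to 8 h and 1.42 ± 0.490 FPKM at 3 to 5 h (SD, n = 3 each), a ratio of 4.61, and the log2 fold change was 1.64 ± 0.30 (SE), with a limma adjusted p of 0.0283. It missed the threshold without the 3, 4, 6, 7 or 8 h library (adjusted p 0.0974, 0.124, 0.0724, 0.0512 and 0.191) and in a fit of the 10 small intestine libraries alone (0.0959). A processed copy, Ccnb1-ps, is annotated in the same genome, and the sources used here do not say how its reads were assigned.

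Cdca2 encodes Repo-Man, which brings protein phosphatase 1 to chromatin as cells leave mitosis (chr14:67673180-67715841). Its level was 4.17, 2.94 and 3.77 FPKM at 6, 7 and 8 h, against 1.27, 1.10 and 1.08 FPKM at 3, 4 and 5 h. The groups did not overlap, and the 3 to 5 h values lay within a narrow band. Cdca2 averaged 3.63 ± 0.627 FPKM at 6 to 8 h and 1.15 ± 0.107 FPKM at 3 to 5 h (SD, n = 3 each), a ratio of 3.15, with a log2 fold change of 1.10 ± 0.18 and a limma adjusted p of 0.0217. Cdca2 missed the threshold without the 4, 6 or 8 h library (adjusted p 0.0534, 0.0724 and 0.140) and in the fit of small intestine alone (0.231).

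**Figure D1:**
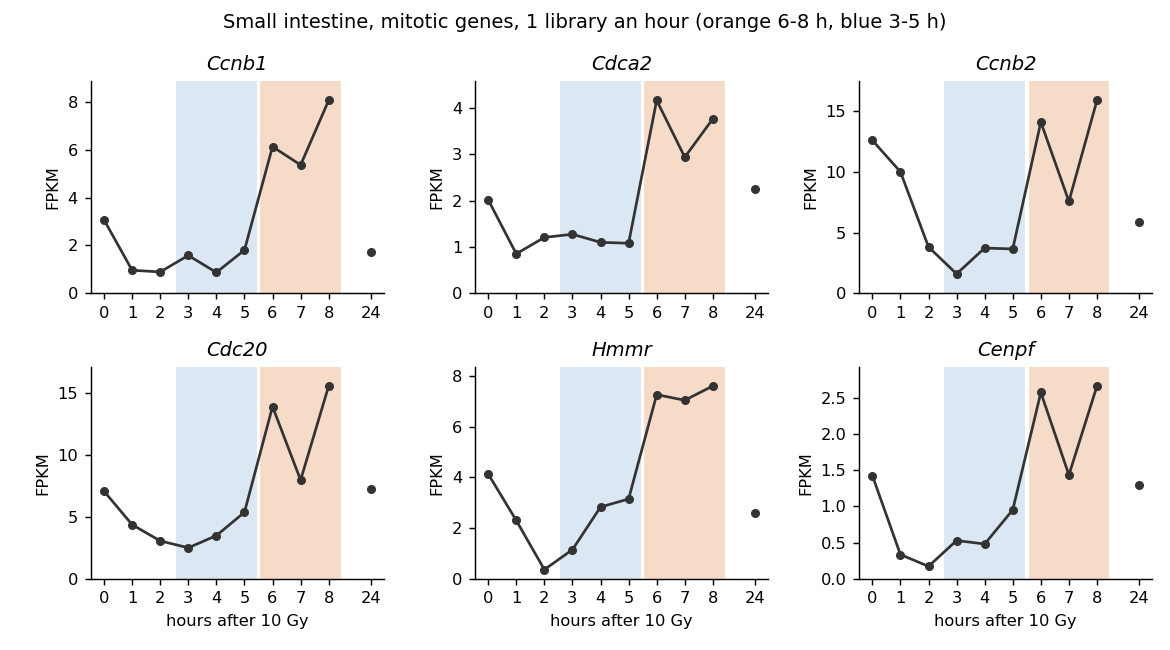
FPKM of 6 mitotic genes in small intestine against hours after 10 Gy, 1 library per point, with the 6 to 8 h window shaded orange and the 3 to 5 h window blue. In all 6 panels every point in the orange window lies above every point in the blue window, and the 24 h point lies below the 8 h point.

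Cmss1 and Tmed1 rose as well. Cmss1, a nucleolar protein gene (chr16:57301999-57606867), had 3.41, 3.80 and 3.71 FPKM at 6, 7 and 8 h, against 1.25, 0.541 and 0.438 FPKM at 3, 4 and 5 h, with a log2 fold change of 1.44 ± 0.26 and a limma adjusted p of 0.0283. Cmss1 spans Filip1l, and Filip1l had 9.14, 9.87 and 10.2 FPKM at 6, 7 and 8 h, against 8.57, 10.1 and 7.65 FPKM at 3, 4 and 5 h. Tmed1, a cargo receptor gene of the early secretory pathway (chr9:21507380-21510234), had 4.32, 4.25 and 5.08 FPKM at 6, 7 and 8 h, against 1.42, 2.01 and 2.86 FPKM at 3, 4 and 5 h, with a log2 fold change of 0.87 ± 0.16 and a limma adjusted p of 0.0360. It overlaps Dnm2, which had 79.8, 92.0 and 75.8 FPKM at 6, 7 and 8 h, against 106, 90.0 and 96.8 FPKM at 3, 4 and 5 h. Cmss1 missed the threshold without the 4, 5, 6, 7 or 8 h library (adjusted p 0.102, 0.0663, 0.0724, 0.0784 and 0.140), and Tmed1 without the 3, 4, 6, 7 or 8 h library (adjusted p 0.336, 0.0966, 0.0747, 0.0628 and 0.235). The libraries do not mark strand, so reads from any stretch that overlapping genes share cannot be assigned by strand. Whether exons of these genes overlap was not checked, and the values of Cmss1 and Tmed1 are uncertain for that reason.

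The other 3 calls, Egfl7, Cutc and Rpl34, rest on libraries in which the gene was listed at or near 0. Such a value can be a failed estimate of the assembler, and 143 of the 11382 tested genes were below 0.1 FPKM in 1 library and at 2 FPKM or above in another. Egfl7, a secreted endothelial factor that hosts the microRNA gene Mir126a (chr2:26581083-26592682), had 2.79, 3.83 and 2.81 FPKM at 6, 7 and 8 h and was listed at 0.0014, 0.0013 and 0.0183 FPKM at 3, 4 and 5 h. It was also listed at 0 at 1 h, and had 3.51 FPKM at 0 h. Its limma adjusted p was 0.0283, and without any 1 of the 6 libraries it was 0.0553 to 0.140. Of the 8 tested endothelium markers no other was called.

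Cutc, named for a bacterial copper tolerance protein (chr19:43753023-43768638), was listed at 0.0022, 0.0022 and 0.0005 FPKM at 6, 7 and 8 h, against 6.32, 8.03 and 11.1 FPKM at 3, 4 and 5 h. The change was a step between 5 and 6 h, and the 24 h library was also listed at 0.0022 FPKM, while 0, 1 and 2 h had 10.6, 7.34 and 7.89 FPKM. Its limma adjusted p was 0.000263, the smallest of the comparison. Rpl34, a protein of the large ribosomal subunit (chr3:130726827-130730398), was listed at 5.75, 0 and 0 FPKM at 6, 7 and 8 h, against 16.3, 11.4 and 13.5 FPKM at 3, 4 and 5 h, with a limma adjusted p of 0.0224. Rpl34 missed the threshold without the 3, 4, 7 or 8 h library (adjusted p 0.0974, 0.0534, 0.0824 and 0.140). The copies Rpl34-ps1 and Rpl34-ps2 are annotated, and Rpl34-ps1 had 292, 251 and 326 FPKM at 6, 7 and 8 h, against 364, 309 and 299.8 FPKM at 3, 4 and 5 h. The sources do not say how reads of such copies were assigned, so the value of Rpl34 is uncertain. Of the 35 ribosomal protein genes tested no other was called. No fold is given for these 3 genes because a group holds values at or near 0.

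The promoters of Ccnb1 and of the 3 mitotic genes with the next smallest adjusted p, Ccnb2, Cdc20 and Hmmr, are shown because these genes lead the mitotic lists and because CCAAT boxes can be read in all 4 and CHR letters in 3 of them. Each run goes 5′ to 3′ on the gene's strand from 130 bases before the start to 20 bases after it (RefSeq, GRCm38.p6). Capitals mark CCAAT boxes, which read ATTGG on the opposite strand, and the CHR letters TTTGAA. Ccnb1 lies at chr13:100786467-100786616, Ccnb2 at chr9:70421535-70421684, Cdc20 at chr4:118437324-118437473 and Hmmr at chr11:40733418-40733567, all on the minus strand. Of Cdca2 no promoter is printed.
Ccnb1: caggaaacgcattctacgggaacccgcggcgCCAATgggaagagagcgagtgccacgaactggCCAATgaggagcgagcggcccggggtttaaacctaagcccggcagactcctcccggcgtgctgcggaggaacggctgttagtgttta
Ccnb2: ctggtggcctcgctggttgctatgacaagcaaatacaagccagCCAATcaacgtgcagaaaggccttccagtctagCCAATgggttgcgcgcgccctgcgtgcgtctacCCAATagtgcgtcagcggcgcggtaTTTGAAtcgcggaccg
Cdc20: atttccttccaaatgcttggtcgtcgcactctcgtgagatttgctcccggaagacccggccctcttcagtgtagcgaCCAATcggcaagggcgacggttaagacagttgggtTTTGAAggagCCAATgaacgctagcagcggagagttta
Hmmr: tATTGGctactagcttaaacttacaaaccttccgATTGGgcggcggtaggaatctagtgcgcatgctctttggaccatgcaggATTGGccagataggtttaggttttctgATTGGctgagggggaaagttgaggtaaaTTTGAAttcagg
Ccnb1 has 2 CCAAT boxes, beginning 99 and 67 bases before the start, and no TTTGAA in the window. Ccnb2 has 3 CCAAT boxes with a TTTGAA just after the start, Cdc20 has 2 CCAAT boxes with a TTTGAA 18 bases before the start, and Hmmr has 4 ATTGG with a TTTGAA after the start.

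The same letters were counted in windows of the same 150 bases (130 bases before to 20 after the start), on both strands. RefSeq promoters were at hand for 72 of the 91 tested mitotic genes, 1 per gene. TTTGAA or TTCGAA stood in 37 of the 72 (51.4%), against 513 of 8731 genes tested (5.88%) and 9.47% of all 27025 promoters of the table. At least 1 CCAAT stood in 46 (63.9%), against 27.9% of genes tested and 24.9% of all promoters. Both kinds of letters stood in 30 (41.7%), against 1.96% of genes tested and 2.37% of all. Among the 48 mitotic genes with all 6 to 8 h libraries above all 3 to 5 h libraries, 62.5% held a CHR form, 66.7% at least 1 CCAAT, 37.5% at least 2 (against 40.3% of the 72) and 47.9% both kinds, with no test of these differences. The boxes and the CHR forms can share only an end letter. A match is a description of these windows, and no match says nothing of a factor.

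The 4 lists covered mitotic entry, the spindle, the kinetochore and the exit from mitosis, with 105 genes in all, of which 101 were in the table and 91 passed the filter. The lists were chosen with earlier results of these data known, so their shares are a description. Of the 91, 2 passed the test (Ccnb1 and Cdca2), 85 had a log2 fold change above 0, and the median was 0.82, beside -0.03 over all genes tested. In 62 of 91 (68.1%) all 3 libraries at 6 to 8 h lay above all 3 at 3 to 5 h, beside 5.75% of all genes tested, and in 1 (Anapc11) all lay below. The summed level of the 91 genes was 1152.2, 954.6 and 1228 FPKM at 6, 7 and 8 h, against 780.1, 779.4 and 823.5 FPKM at 3, 4 and 5 h. Beside it, the 14 tested stem cell markers summed to 299, 224 and 292 FPKM at 6, 7 and 8 h, against 251, 244 and 264 FPKM at 3, 4 and 5 h. The 21 tested T cell markers, whose cells also divide, summed to 762, 548 and 777 FPKM at 6, 7 and 8 h, against 768, 924 and 399 FPKM at 3, 4 and 5 h, with overlapping windows. Whether a change of cell makeup had a part in the mitotic values was not tested.

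Entry into mitosis is driven by cyclin B and Cdk1, which Cdc25 phosphatases and the Plk1 and Aurora A kinases switch on. Of 16 tested members 1 was called, 12 were separate upward and the median log2 fold change was 0.80. Ccnb2, the second B cyclin, had 14.1, 7.57 and 15.9 FPKM at 6, 7 and 8 h, against 1.59, 3.72 and 3.64 FPKM at 3, 4 and 5 h, with a log2 fold change of 1.76 ± 0.39 and a limma adjusted p of 0.105. Its 7 h value was well below its 6 h and 8 h values yet above all of the earlier window. Cdk1 had 18.5, 12.6 and 19.5 FPKM at 6, 7 and 8 h, against 4.69, 9.08 and 9.42 FPKM at 3, 4 and 5 h (adjusted p 0.306). For the kinase Plk1 the levels were 9.04, 7.63 and 8.50 FPKM at 6, 7 and 8 h, against 3.63, 5.08 and 4.53 FPKM at 3, 4 and 5 h (adjusted p 0.315). Both pairs of windows were separate. Aurka, which activates Plk1 with its cofactor Bora, had 13.5, 7.97 and 15.0 FPKM at 6, 7 and 8 h, against 5.74, 5.88 and 5.38 FPKM at 3, 4 and 5 h, and Bora had a log2 fold change of 0.79 ± 0.21 (adjusted p 0.197).

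Regulators of this program gave mixed values. Foxm1, the transcription factor, had 2.1, 1.62 and 1.30 FPKM at 6, 7 and 8 h, against 0.804, 0.945 and 1.07 FPKM at 3, 4 and 5 h, with a log2 fold change of 0.45 ± 0.17 and a limma adjusted p of 0.470. Mybl2, which encodes B-Myb, was below the filter at 0.54, 0.79 and 0.686 FPKM at 6, 7 and 8 h, against 0.782, 0.675 and 0.303 FPKM at 3, 4 and 5 h. The Cdk1 inhibiting kinase gene Wee1 overlapped between windows at 14.5, 17.9 and 20.2 FPKM at 6, 7 and 8 h, against 21.7, 14.3 and 10.2 FPKM at 3, 4 and 5 h. Ccnb1, Ccnb2, Cdk1, Plk1, Aurka and Foxm1 were separate between windows and Wee1 was not. The level of Foxm1 was low, and the log2 scale used here understates the change of low genes.

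Of the 4 mitotic lists, spindle and kinesin genes held the largest share of separate windows, 21 of 24 (87.5%), with none called and a median log2 fold change of 0.91. Kif20a, a kinesin of the central spindle and cytokinesis, had 8.20, 4.01 and 10.7 FPKM at 6, 7 and 8 h, against 1.18, 1.67 and 3.96 FPKM at 3, 4 and 5 h (log2 fold change 1.41 ± 0.35, limma adjusted p 0.162). Several more are named here after their values were seen. Hmmr, a spindle assembly factor, had 7.26, 7.03 and 7.60 FPKM at 6, 7 and 8 h, against 1.15, 2.83 and 3.14 FPKM at 3, 4 and 5 h, almost level across the later window (log2 fold change 1.36 ± 0.30, adjusted p 0.105). Kif11, the motor that pushes spindle poles apart, had 9.52, 6.19 and 11.3 FPKM at 6, 7 and 8 h, against 2.50, 4.60 and 4.28 FPKM at 3, 4 and 5 h, and its limma adjusted p was 0.190. Tpx2, which activates Aurora A on microtubules, had 5.30, 6.21 and 9.77 FPKM at 6, 7 and 8 h, against 1.92, 2.91 and 3.76 FPKM at 3, 4 and 5 h. Tacc3, which links microtubules of the spindle, and Racgap1, which prepares the cleavage furrow, had log2 fold changes of 1.09 ± 0.25 and 1.27 ± 0.30 (adjusted p 0.119 and 0.141). The windows of these 6 genes were separate and none of the 6 passed the test.

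At the kinetochore, where chromosomes meet the spindle, 16 of 29 members (55.2%) were separate upward, none was called and the median log2 fold change was 0.80. Cenpa, the centromeric histone, had 10.7, 7.68 and 16.0 FPKM at 6, 7 and 8 h, against 6.41e-05, 3.61 and 6.21 FPKM at 3, 4 and 5 h, so its value depends on a 3 h library listed near 0. Without the 5 h library it passed the limma test (adjusted p 0.0475). Nuf2, a subunit of the microtubule binding Ndc80 complex, had 5.68, 4.32 and 7.49 FPKM at 6, 7 and 8 h, against 1.52, 2.26 and 2.31 FPKM at 3, 4 and 5 h (log2 fold change 1.16 ± 0.29, limma adjusted p 0.168). Cenpf, an outer kinetochore protein, had 2.58, 1.44 and 2.67 FPKM at 6, 7 and 8 h, against 0.529, 0.481 and 0.953 FPKM at 3, 4 and 5 h (log2 fold change 0.95 ± 0.22, adjusted p 0.119). The checkpoint kinase gene Bub1b, chosen after its values were seen, had 6.75, 4.34 and 7.10 FPKM at 6, 7 and 8 h, against 3.07, 2.19 and 3.24 FPKM at 3, 4 and 5 h. Aurkb, the kinase of the chromosomal passenger complex, overlapped between windows, at 5.89, 3.48 and 5.61 FPKM at 6, 7 and 8 h, against 2.59, 4.31 and 2.65 FPKM at 3, 4 and 5 h.

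Anaphase and condensation genes separate the chromosomes and pack them. Of 22 tested, 1 was called (Cdca2), 13 (59.1%) were separate upward and the median log2 fold change was 0.72. Cdc20, the activator of the anaphase promoting complex, had 13.9, 7.96 and 15.5 FPKM at 6, 7 and 8 h, against 2.50, 3.48 and 5.36 FPKM at 3, 4 and 5 h, with a log2 fold change of 1.49 ± 0.33 and a limma adjusted p of 0.105. Top2a, which untangles sister chromatids, had 37.0, 20.8 and 33.1 FPKM at 6, 7 and 8 h, against 11.4, 15.5 and 17.7 FPKM at 3, 4 and 5 h (adjusted p 0.358), and the proliferation antigen Mki67 had 13.9, 8.06 and 11.3 FPKM at 6, 7 and 8 h, against 4.59, 6.49 and 6.08 FPKM at 3, 4 and 5 h (adjusted p 0.449). Ube2c, the ubiquitin conjugating enzyme of the complex, had 54.0, 40.4 and 54.7 FPKM at 6, 7 and 8 h, against 19.6, 22.6 and 19.8 FPKM at 3, 4 and 5 h (log2 fold change 1.22 ± 0.48, adjusted p 0.489). Anapc11, a core subunit of the same complex that cells keep through the cycle, was the member separate downward at 7.16, 7.67 and 8.22 FPKM at 6, 7 and 8 h, against 8.53, 8.25 and 9.29 FPKM at 3, 4 and 5 h (log2 fold change -0.16 ± 0.14, adjusted p 0.842).

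The 5 genes whose log2 levels most resembled Ccnb1 over the 10 small intestine libraries were Anln (Pearson r 0.942), Sh3bp5 (0.937), Cenpf (0.930), Cdca2 (0.928) and Nuf2 (0.923). All but Sh3bp5 are in the mitotic lists. Anln, anillin of the cleavage furrow, had 4.35, 3.0 and 4.43 FPKM at 6, 7 and 8 h, against 1.34, 1.41 and 1.95 FPKM at 3, 4 and 5 h (log2 fold change 0.93 ± 0.26, limma adjusted p 0.227). Sh3bp5 had 2.50, 2.70 and 2.64 FPKM at 6, 7 and 8 h, against 1.74, 1.73 and 1.87 FPKM at 3, 4 and 5 h (adjusted p 0.610). The likeness is a description over libraries that share depth and tissue makeup.

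By hour, the mitotic genes lay mostly below the 0 h library first and mostly above it at 6 to 8 h. Against the 0 h library, the median log2 difference of the 91 genes was -0.34 at 1 h, -0.88 at 2 h, -0.57 at 3 h, -0.32 at 4 h, -0.23 at 5 h, 0.51 at 6 h, 0.14 at 7 h, 0.57 at 8 h and -0.21 at 24 h. From 1 to 8 h, the step between 5 and 6 h was the widest between neighbouring libraries. Of the 91 genes, 74 (81.3%) were below 0 h at both 1 and 2 h, beside 35.1% of all genes tested. In 53 (58.2%, beside 24.8% of all genes tested) all 3 libraries at 6 to 8 h were above the 0 h library, and in 58 (63.7%, beside 27.8%) all 3 at 3 to 5 h were below it. The 24 h library was below all 3 libraries at 6 to 8 h in 73 (80.2%, beside 25.4%). The 0 h and 24 h values come from 1 library each and have no replicate check.

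**Figure D2:**
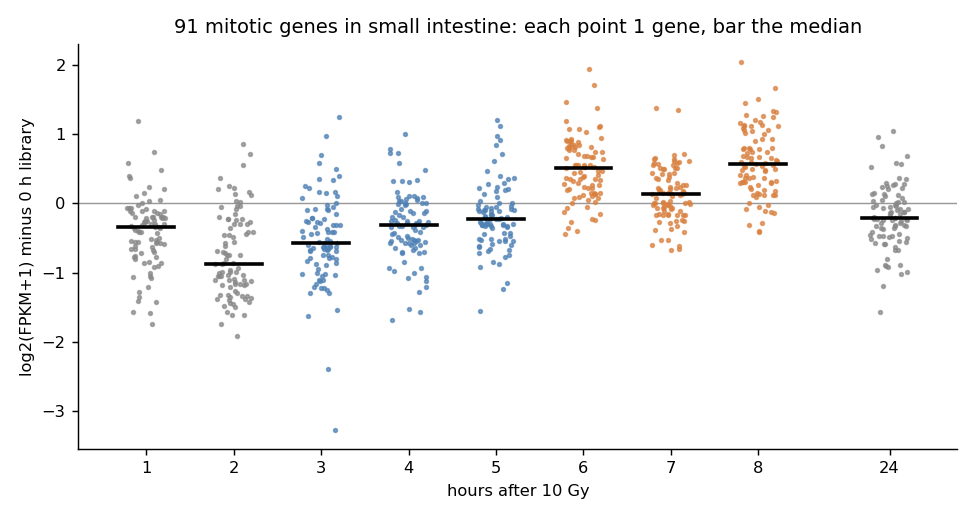
Difference of log2(FPKM + 1) from the untreated 0 h library of small intestine for the 91 tested mitotic genes, by hour after 10 Gy, each point 1 gene and each bar the median (orange 6 to 8 h, blue 3 to 5 h). The medians lie below 0 from 1 to 5 h and at 24 h, and above 0 at 6, 7 and 8 h.

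The 7 h library stood lower than its neighbours in these genes. It held the lowest value of the later window in 72 of the 91 genes. Its relative depth, a rough estimate, was 0.993, beside 1.288 at 6 h and 1.01 at 8 h. Any part of depth was not tested. The 7 h library was also the one in which Cfd and Retn were listed at 0. Its marker sums differed from those at 6 and 8 h as well. Paneth cell markers summed to 20117 FPKM (beside 38361 and 52377), stem cell markers to 224 (beside 299 and 292) and smooth muscle markers to 397 (beside 703 and 722). Enterocyte markers were higher, at 154704 FPKM (beside 126179 and 150943). Any part of tissue makeup was not tested. Without the 7 h library, all later libraries lay above all earlier ones in 75 of 91 mitotic genes, beside 11.4% of all genes tested. With median-of-ratios scaling the count was 64 (beside 8.97%) and with quantile normalization 60 (beside 6.68%). These 3 counts were added after the data were seen.

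Other tissues were used to ask whether the same hours gave the same change. The mitotic genes had a median log2 fold change in small intestine of 0.82, while that of large intestine was 0.46, of spleen -0.09 and of thymus -0.72, beside -0.03, 0.00, 0.02 and 0.00 over all genes tested. Above 0 were 85 of the 91 in small intestine, 81 of them in large intestine, 33 in spleen and 3 in thymus. The difference between tissues was tested as an interaction term in limma. The change in small intestine exceeded the mean change of spleen and thymus in 64 of 89 mitotic genes, beside 4.08% of the 10239 genes tested, and was below it in none, beside 5.84%. Against thymus alone the count was 68 of 89 (beside 4.01%), and against spleen alone 13 of 89 (beside 1.53%). The counts of mitotic genes in these interactions, here and below, were added after the data were seen. The 6 h spleen library stood apart, with the pancreatic lipase Pnlip at 7419 FPKM against at most 15.4 FPKM in the other spleen libraries. Without it and the 2 h large intestine library, the counts were 60 of 89 against the mean (beside 4.76%), 73 against thymus (beside 4.85%) and 8 against spleen (beside 1.98%). Leaving out single small intestine libraries gave 38 to 64 of 89, with 39 without the 6 h library, 38 without 8 h and 39 without 3 h.

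**Figure D3:**
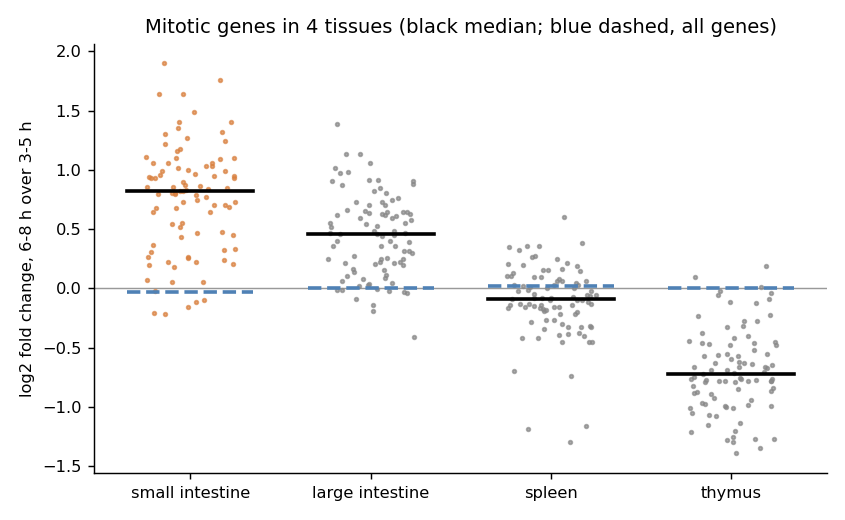
Log2 fold change of FPKM + 1, 6 to 8 h over 3 to 5 h, of the 91 mitotic genes in each of 4 tissues, each point 1 gene, with the median in black and the median of all genes tested dashed in blue. From left to right the medians are 0.82, 0.46, -0.09 and -0.72.

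Between the intestines no mitotic gene passed the test of a difference in change. For the difference between small and large intestine, 1 of 10841 genes passed the limma test (0.00922%) and 460 had an unadjusted p below 0.05. The 1 gene was Cutc, with a difference of -3.47 ± 0.55 on the log2 scale and an adjusted p of 0.0195, which rests on values listed near 0. Ccnb1 changed by 1.64 ± 0.30 in small intestine and had 0.52 ± 0.30 in large intestine, and the difference of 1.12 ± 0.42 had an adjusted p of 0.999. Cdca2 changed by 1.10 ± 0.18 and had 0.46 ± 0.18 in large intestine, a difference of 0.64 ± 0.26 with an adjusted p of 0.999. A p that misses the threshold does not show that the intestines acted alike.

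Single members show the spread among tissues. Against the mean of spleen and thymus, the difference in change was 1.73 ± 0.37 for Ccnb1 (limma adjusted p 0.00604), 2.02 ± 0.47 for Ccnb2 (adjusted p 0.00972) and 1.45 ± 0.23 for Cdca2 (adjusted p 0.000907). In thymus Cdca2 fell by 0.63 ± 0.18 on the log2 scale (adjusted p 0.0235). Hmmr had a difference of 1.58 ± 0.36 (adjusted p 0.00967), and Kif11 one of 1.64 ± 0.34 (adjusted p 0.00577). Aurka at 1.09 ± 0.41 missed the threshold (adjusted p 0.0911).

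Genes of the earlier cell cycle phases gave smaller values. Of 20 tested genes of the G1 to S transition, 1 was separate upward (beside 5.75% of all genes), none was called and the median log2 fold change was 0.02. Ccne1, the cyclin that starts S phase, had 2.02, 1.23 and 2.74 FPKM at 6, 7 and 8 h, against 1.73, 2.54 and 2.66 FPKM at 3, 4 and 5 h, and E2f8, a repressor of the E2F program, had 3.39, 2.55 and 3.01 FPKM at 6, 7 and 8 h, against 2.18, 2.71 and 1.52 FPKM at 3, 4 and 5 h. Both overlapped between windows. E2f1 was below the filter, at or below 1.33 FPKM in all 6 libraries. Skp2, a subunit of a ubiquitin ligase for Cdk inhibitors, had 4.08, 3.37 and 0.00109 FPKM at 6, 7 and 8 h, against 3.84, 2.79 and 2.90 FPKM at 3, 4 and 5 h, and its 8 h library was listed near 0.

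DNA replication genes lay between. Of 38 tested, 8 (21.1%, beside 5.75% of all genes) were separate upward and 1 (2.63%, beside 9.51%) downward, none was called, and the median log2 fold change was 0.15. Mcm6, a subunit of the replicative helicase, had 19.3, 15.6 and 19.9 FPKM at 6, 7 and 8 h, against 14.4, 12.3 and 13.6 FPKM at 3, 4 and 5 h. Pcna, the sliding clamp, had 59.6, 51.9 and 56.1 FPKM at 6, 7 and 8 h, against 72.1, 57.2 and 61.9 FPKM at 3, 4 and 5 h. The first was separate upward and the second overlapped, and both were chosen after their values were seen. The level of Orc6, of the origin recognition complex, was 10.4, 6.94 and 9.91 FPKM at 6, 7 and 8 h, against 0.000192, 4.64 and 9.71 FPKM at 3, 4 and 5 h, with a 3 h library listed near 0. Of the 38, 16 were higher in the difference from spleen and thymus (beside 4.08% of all genes), among them Rrm1 of ribonucleotide reductase at 1.21 ± 0.27 (limma adjusted p 0.00768) and Tk1, thymidine kinase, at 1.27 ± 0.27 (adjusted p 0.00598), both chosen after their values were seen. The median log2 fold change of the 38 was -0.31 in spleen and -1.05 in thymus, so a lower level in those tissues enters this difference.

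DNA repair and checkpoint genes gave 5 of 23 separate upward (21.7%, beside 5.75% of all genes), none called and a median log2 fold change of 0.26. In the difference from spleen and thymus 13 of 23 were higher, beside 4.08% of all genes. Here too the median log2 fold change was below 0 in the other tissues, at -0.40 in spleen and -0.83 in thymus. Rad51ap1, a gene of homologous recombination, had 3.62, 1.69 and 3.31 FPKM at 6, 7 and 8 h, against 1.12, 1.77 and 1.30 FPKM at 3, 4 and 5 h (log2 fold change 0.66 ± 0.27, limma adjusted p 0.514). Chek1, the kinase below ATR, had 0.961, 1.25 and 1.60 FPKM at 6, 7 and 8 h, against 0.666, 1.23 and 1.06 FPKM at 3, 4 and 5 h and overlapped. Chek2, the kinase below ATM, had 8.78, 6.91 and 8.95 FPKM at 6, 7 and 8 h, against 6.54, 4.75 and 4.57 FPKM at 3, 4 and 5 h (log2 fold change 0.56 ± 0.20, adjusted p 0.453) and was chosen after its values were seen.

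**Figure D4:**
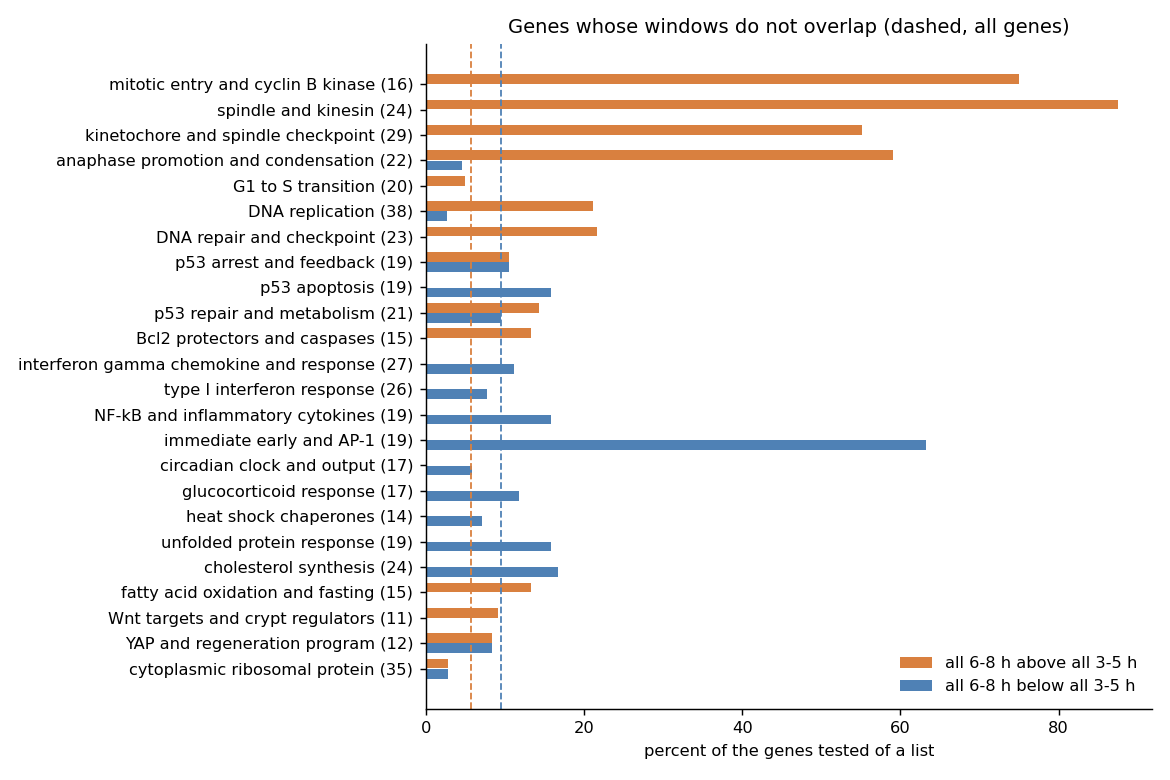
Percent of the tested genes of each of 24 pathway lists with 10 or more genes tested (number in parentheses) whose 3 libraries at 6 to 8 h all lie above (orange) or all below (blue) the 3 libraries at 3 to 5 h in small intestine, with the shares over all genes, 5.75% and 9.51%, dashed. The 4 mitotic lists reach 55.2% to 87.5% above, and the immediate early and AP-1 list reaches 63.2% below. All lists were chosen with earlier results of these data known.

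The targets of p53 that halt the cycle, start apoptosis or repair DNA gave no call between windows. No gene of the 3 p53 lists was called, and their median log2 fold changes were -0.10 in the arrest list, -0.15 in the apoptosis list and 0.00 in the repair list. The summed level of the arrest list was 1215, 1168 and 1195 FPKM at 6, 7 and 8 h. At 3, 4 and 5 h it was higher, at 1476, 1376 and 1307 FPKM. The sums of the repair list overlapped between windows. Cdkn1a, the p21 inhibitor of cyclin kinases, had 332, 330.2 and 325 FPKM at 6, 7 and 8 h, against 517, 485 and 356 FPKM at 3, 4 and 5 h, beside 199 FPKM at 0 h (log2 fold change -0.44 ± 0.27, limma adjusted p 0.737). Its 6 to 8 h values were nearly equal and lay below all 3 of the earlier values. Mdm2, the ligase that degrades p53, had 54.7, 56.4 and 53.7 FPKM at 6, 7 and 8 h, against 67.8, 55.6 and 53.7 FPKM at 3, 4 and 5 h, and the p53 gene Trp53 had 17.3, 13.6 and 15.4 FPKM at 6, 7 and 8 h, against 16.7, 13.4 and 15.5 FPKM at 3, 4 and 5 h. Ccng1, a feedback target, had 320.5, 292 and 291 FPKM at 6, 7 and 8 h, against 279, 262 and 340.3 FPKM at 3, 4 and 5 h, beside 37.6 FPKM at 0 h, so it overlapped between windows.

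Apoptotic p53 targets overlapped in most cases, with 3 of 19 separate downward (15.8%, beside 9.51% of all genes) and none upward. Of the 19, 17 had a log2 fold change below 0, while 5088 of the 11382 genes tested were above 0. Their summed level was 1377, 1377 and 1293 FPKM at 6, 7 and 8 h. At 3, 4 and 5 h it was higher, at 1486, 1664 and 1507 FPKM. Bax, a pore former of the mitochondrial membrane, had 170.5, 137 and 159 FPKM at 6, 7 and 8 h, against 141, 135 and 162 FPKM at 3, 4 and 5 h. Bbc3, which encodes Puma, had 3.46, 3.29 and 4.40 FPKM at 6, 7 and 8 h, against 4.28, 4.58 and 5.38 FPKM at 3, 4 and 5 h. The BH3 gene Pmaip1, which encodes Noxa, had 114, 105 and 67.8 FPKM at 6, 7 and 8 h, against 146, 284 and 103 FPKM at 3, 4 and 5 h (log2 fold change -0.79 ± 0.30, limma adjusted p 0.474), with its peak at 4 h. Plk2, a stress kinase, had 30.8, 33.7 and 27.8 FPKM at 6, 7 and 8 h, against 35.1, 24.9 and 31.8 FPKM at 3, 4 and 5 h. Phlda3, which restrains Akt, had 21.5, 9.95 and 20.1 FPKM at 6, 7 and 8 h, against 30.3, 21.1 and 26.7 FPKM at 3, 4 and 5 h (log2 fold change -0.63 ± 0.26), and Mgmt, which removes alkyl groups from guanine, had 8.03, 9.94 and 17.0 FPKM at 6, 7 and 8 h, against 6.89, 6.79 and 4.81 FPKM at 3, 4 and 5 h (log2 fold change 0.77 ± 0.29, adjusted p 0.470). Of the 15 tested Bcl2 protectors and caspases 2 were separate upward (13.3%, beside 5.75% of all genes) and none was called, with the widest value in Bcl2a1b at 0.66 ± 0.23.

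Immediate early genes, which cells transcribe within minutes of a signal, were mostly lower in the later window, as a description with no call. Of 19 tested, none was called, 12 (63.2%) were separate downward, beside 9.51% of all genes, and the median log2 fold change was -0.47. Their summed level was 833, 932 and 835 FPKM at 6, 7 and 8 h, against 1239, 1296 and 1251 FPKM at 3, 4 and 5 h. Egr1, a zinc finger factor, had 4.94, 5.99 and 3.87 FPKM at 6, 7 and 8 h, against 12.6, 6.86 and 22.8 FPKM at 3, 4 and 5 h (log2 fold change -1.22 ± 0.55, limma adjusted p 0.565). Junb, an AP-1 subunit chosen after its values were seen, had 64.7, 73.7 and 71.8 FPKM at 6, 7 and 8 h, against 148, 107 and 114 FPKM at 3, 4 and 5 h. Jun, a related subunit chosen likewise, had 34.9, 42.3 and 40.6 FPKM at 6, 7 and 8 h, against 62.2, 70.9 and 56.7 FPKM at 3, 4 and 5 h. Their partner Fos, chosen in the same way, had 157, 169.6 and 124 FPKM at 6, 7 and 8 h, against 183, 281 and 299.9 FPKM at 3, 4 and 5 h. In all 4 every later value lay below every earlier one. Handling of tissue can raise these genes, and its part was not tested.

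The list of NF-kB genes and inflammatory cytokines gave 3 of 19 separate downward (15.8%, beside 9.51%), none called and a median log2 fold change of -0.26. Nfkbia, the inhibitor that NF-kB itself induces, had 84.5, 73.8 and 60.1 FPKM at 6, 7 and 8 h, against 111, 182 and 108 FPKM at 3, 4 and 5 h, beside 61.6 FPKM at 0 h (log2 fold change -0.84 ± 0.19, limma adjusted p 0.105). Nfkb2, a subunit precursor chosen after its values were seen, had 16.1, 12.9 and 12.1 FPKM at 6, 7 and 8 h, against 23.4, 26.5 and 18.5 FPKM at 3, 4 and 5 h (adjusted p 0.123). In the difference from spleen and thymus 5 of 18 were lower, beside 5.84% of all genes. Nfkbia differed there by -0.78 ± 0.23 (adjusted p 0.0319) and Nfkb2 by -0.75 ± 0.20 (adjusted p 0.0184). Bcl6, a transcriptional repressor, had 7.43, 4.28 and 5.94 FPKM at 6, 7 and 8 h, against 13.7, 14.4 and 11.2 FPKM at 3, 4 and 5 h, with a log2 fold change of -1.05 ± 0.22, an adjusted p of 0.0811 and a difference from spleen and thymus of -1.21 ± 0.27 (adjusted p 0.00813).

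**Figure D5:**
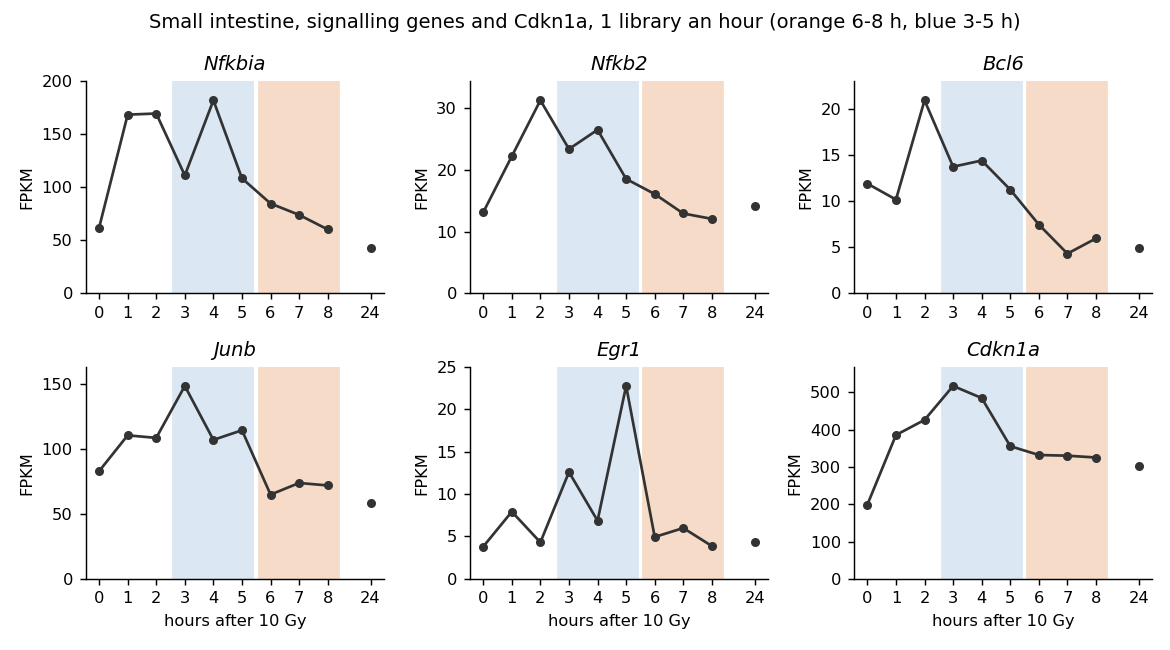
FPKM of Nfkbia, Nfkb2, Bcl6, Junb, Egr1 and Cdkn1a in small intestine against hours after 10 Gy, 1 library per point, with the 6 to 8 h window shaded orange and the 3 to 5 h window blue. In each panel all points of the orange window lie below all points of the blue window, and none of the 6 genes passed the test between windows.

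No interferon response gene passed the test. Of 27 genes of the interferon gamma list 3 were separate downward (11.1%), and of 26 of the type I list 2 (7.69%), both near the 9.51% of all genes. Cxcl10, a T cell attractant, had 3.15, 3.76 and 3.34 FPKM at 6, 7 and 8 h, against 8.12, 5.84 and 5.43 FPKM at 3, 4 and 5 h (log2 fold change -0.74 ± 0.36, limma adjusted p 0.611). Nos2, inducible nitric oxide synthase, had 0.00390, 0.0844 and 0.331 FPKM at 6, 7 and 8 h, against 2.52, 35.2 and 0.108 FPKM at 3, 4 and 5 h, so that its log2 fold change of -2.20 ± 0.71 rests on the 4 h library. Without the 5 h library Nos2 passed (adjusted p 0.0399). Ifit1, an RNA binding antiviral protein, had 47.2, 36.8 and 35.2 FPKM at 6, 7 and 8 h, against 60.0, 81.2 and 53.4 FPKM at 3, 4 and 5 h. Among glucocorticoid response genes 2 of 17 were separate downward (11.8%, near the 9.51% of all genes) and none was called. Mt2, a metallothionein, had 161, 72.6 and 60.0 FPKM at 6, 7 and 8 h, against 399, 501 and 170.3 FPKM at 3, 4 and 5 h (log2 fold change -1.85 ± 0.62, adjusted p 0.393), and its difference from spleen and thymus was -4.15 ± 0.75 (adjusted p 0.00238).

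No epithelial cell type marker was called. Of 14 tested stem cell markers 3 were separate upward (21.4%, beside 5.75% of all genes), with a median log2 fold change of 0.25. Lgr5, the Wnt receptor partner of crypt base stem cells, had 1.83, 1.29 and 1.53 FPKM at 6, 7 and 8 h, against 0.742, 0.931 and 1.18 FPKM at 3, 4 and 5 h (log2 fold change 0.39 ± 0.16, limma adjusted p 0.514), and Olfm4, another crypt base gene, had 108, 59.4 and 101 FPKM at 6, 7 and 8 h, against 119, 96.8 and 105 FPKM at 3, 4 and 5 h. Aqp4, a water channel, had 2.90, 2.14 and 2.21 FPKM at 6, 7 and 8 h, against 0.809, 1.83 and 1.35 FPKM at 3, 4 and 5 h. Goblet cell markers were separate downward in 8 of 12 (66.7%, beside 9.51%), with a median of -0.24, and summed to 24072 to 25808 FPKM at 6 to 8 h and 28106 to 30948 FPKM at 3 to 5 h. The gel forming mucin Muc2 had 182, 203 and 198 FPKM at 6, 7 and 8 h, against 234, 219.8 and 263 FPKM at 3, 4 and 5 h, and Fcgbp, a mucus protein, had 561, 771 and 687 FPKM at 6, 7 and 8 h, against 832, 823 and 933 FPKM at 3, 4 and 5 h (log2 fold change -0.37 ± 0.19, adjusted p 0.636). Chga, of endocrine granules, had 68.3, 71.7 and 68.7 FPKM at 6, 7 and 8 h, against 65.5, 67.6 and 76.8 FPKM at 3, 4 and 5 h.

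The remaining lists are given by the member with the widest log2 fold change, none of which passed the limma test. Among epithelial markers these had log2 fold changes of 1.85 ± 0.69 for Pla2g2a (Paneth cells, listed near 0 at 3 h), -0.99 ± 0.89 for Nts (endocrine cells), 0.64 ± 0.77 for Alox5ap (tuft cells), -0.33 ± 0.28 for Krt20 (enterocytes), 0.34 ± 0.27 for Onecut2 (proximal), -0.92 ± 0.83 for Slc10a2 (distal) and -1.17 ± 0.37 for Cyp2c55 (colonocytes). Distal markers were separate downward in 4 of 9 (44.4%, beside 9.51% of all genes), with a median of -0.46. Adipose and mesothelium markers were separate downward in 5 of 7 (71.4%), with a median of -1.30. Without the 5 h library Pla2g2a passed (limma adjusted p 0.0399). Among other cell types the values were -1.66 ± 0.39 for Cd160 (intraepithelial lymphocytes, listed near 0 at 6 and 7 h, and past the threshold without the 6 h spleen and 2 h large intestine libraries, adjusted p 0.0216), 0.32 ± 0.29 for Pou2af1 (B cells), 0.47 ± 0.18 for Cd68 (macrophages), 1.10 ± 0.46 for S100a8 (neutrophils), -0.37 ± 0.37 for Des (muscle), -0.41 ± 0.32 for Dpt (fibroblasts), -0.49 ± 0.86 for Gal (enteric neurons), 0.89 ± 1.13 for Hbb-b1 (erythroid), 0.75 ± 1.81 for Reg1 (pancreas), -2.20 ± 0.95 for Cfd (adipose) and -0.02 ± 0.33 for Sbsn (keratinocytes).

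Stress and metabolic lists gave -0.39 ± 0.15 for the chaperone gene Dnajb1, -0.57 ± 0.33 for Ddit3 of the unfolded protein response and 0.50 ± 0.24 for Acot2 of the fatty acid list. Cholesterol genes were separate downward in 4 of 24 (16.7%, beside 9.51%). Msln of the YAP list had -0.89 ± 0.50 and the Notch ligand Dll4 -0.28 ± 0.25. Clock genes overlapped between windows in 16 of 17. Per1 had 13.8, 17.4 and 15.4 FPKM at 6, 7 and 8 h, against 18.9, 19.5 and 10.8 FPKM at 3, 4 and 5 h and Dbp, a clock output gene, 84.0, 129.8 and 93.2 FPKM at 6, 7 and 8 h, against 106, 55.2 and 73.4 FPKM at 3, 4 and 5 h. Arntl, a core clock activator, had 5.85, 5.20 and 4.05 FPKM at 6, 7 and 8 h, against 2.09, 5.33 and 7.16 FPKM at 3, 4 and 5 h, and Npas2 had a log2 fold change of -0.52 ± 0.32.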

How the data were processed

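Libraries of polyadenylated RNA from C57B6 tissues were non-directional, per the labels' protocols. Per the submitters' processing notes, the authors used TopHat2 2.1.0, Cufflinks 2.1.1 and the build mm10, and deposited FPKM values for 13611 genes by symbol in 54 libraries. The sources used here do not state how genes were chosen, whether values were scaled further, or total fragments.

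The 40 tissue libraries entered 1 limma fit (limma 3.58.1, R 4.3.3) of log2(FPKM + 1), with a mean for each window of each tissue, 20 residual degrees of freedom and a variance trend. Fold changes are on this scale and understate the change of low genes. Genes averaging at least 1 FPKM over the 6 libraries were tested, and a call needed an adjusted p under 0.05 (Benjamini-Hochberg, two-sided). Interactions used the same fit with the filter in every tissue compared. FPKM is a share of all fragments, so abundant transcripts move the other values.

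The members and the 46 gene lists were chosen with earlier results of these data known. Named genes were the called genes, the member with the widest fold change of each list with no call, a set list of cell cycle, p53, marker and clock genes, and the 5 genes most like Ccnb1. Others are said to be chosen after their values were seen. Ascl2, of the set list, is not analysed here, and 1 gene that the rule names is not reported. Positions came from RefSeq GRCm38.p6, where 13027 symbols matched. The fit was tested on simulated data. Alternatives were samples in the fit, pseudocount, filter, scaling, slope, block, robust fit and leaving out libraries.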

Additional observations from a re-analysis of the deposited data

Results flagged for a closer look

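The following genes were singled out because the change from 3 to 5 h to 6 to 8 h differed between tissues. The test was an interaction in limma, with an adjusted p below 0.05. Against the mean of spleen and thymus, 418 of the 10239 genes tested (4.08%) were higher and 598 (5.84%) were lower. Of these, only genes already named in the text are listed. Values are the small intestine change minus the mean of the spleen and thymus changes, on the log2 scale, except where large intestine is named.

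Among genes of mitotic entry the difference was 1.73 for Ccnb1, 2.02 for Ccnb2, 1.36 for Cdk1, 0.98 for Plk1, 1.41 for Bora and 0.87 for Foxm1. For spindle and cytokinesis genes it was 1.58 for Hmmr, 1.64 for Kif11, 1.54 for Kif20a, 1.47 for Tacc3, 1.63 for Racgap1, 1.29 for Tpx2 and 1.49 for Anln. Kinetochore genes gave 1.87 for Cenpa, 1.05 for Cenpf, 1.68 for Nuf2, 1.15 for Bub1b and 0.97 for Aurkb. Genes of anaphase and condensation gave 1.59 for Cdc20, 1.45 for Cdca2, 1.36 for Mki67 and 1.52 for Top2a.

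Outside mitosis, the replication and repair genes Rrm1, Tk1, Chek2 and Rad51ap1 differed by 1.21, 1.27, 1.42 and 1.50. Cmss1 differed by 2.28 and Egfl7 by 1.41. Downward differences were -1.21 for Bcl6, -0.75 for Nfkb2, -0.78 for Nfkbia, -4.15 for Mt2, -1.80 for S100a8, -3.46 for Rpl34 and -2.81 for Cutc. Against large intestine, 1 gene differed, Cutc, by -3.47. The values of Egfl7, Rpl34, Cutc, Cenpa and S100a8 involve libraries in which the gene was listed near 0.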

How the results depend on the processing

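The counts of calls were small and moved with most settings. Higher genes, 5 in the reported fit, numbered 1 with the 10 or the 6 small intestine libraries alone, 3 with both intestines, 0 at a mean of at least 5 FPKM, 1 with quantile normalization, 8 with median-of-ratios scaling, 0 with a slope over 3 to 8 h and 1 without genes listed near 0. Lower genes, 2 in the reported fit, numbered 1, 1, 1, 0, 1, 2, 0 and 0 in the same order. Mitotic genes called, 2 in the reported fit, numbered 0, 0, 0, 0, 1, 2, 0 and 1, and 1 with a pseudocount of 0.1. Leaving out single libraries gave 0 to 8 higher, 1 to 4 lower and 0 to 3 mitotic genes. Mitotic genes higher than in spleen and thymus, 64 of 89, ranged from 38 to 64 when single libraries were left out, and were 23 of 35 at a mean of at least 5 FPKM, where fewer genes were tested. Against spleen alone, 13 of 89 became 8 when the 6 h spleen library and that of large intestine at 2 h were left out. The only gene that differed from large intestine was lost with a pseudocount of 0.1 or the replicate block, with 0 called in each. With hour as a replicate block, 6 genes were higher, 2 lower and 2 mitotic, and 1041 genes, against 1016, differed from spleen and thymus. Deviations from the window means, taken across genes, correlated at -0.10 to 0.15 between small intestine and another tissue at the same hour. With means of only 3 libraries, these values cannot decide whether tissues of the same hour share an animal. Apart from Cutc, every called gene lost its call in 6 or more alternatives. Cutc missed the threshold under the slope (-0.78, adjusted p 0.291), and was not tested at a mean of at least 5 FPKM or without genes listed near 0, where the filter removed it. Calls were also gained: without the 5 h library Pla2g2a, Nos2 and Cenpa passed (adjusted p 0.0399, 0.0399 and 0.0475), and Cd160 passed when the libraries of spleen at 6 h and large intestine at 2 h were left out (0.0216). Where no other cause is named, the cause was not tested.

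Signs turned in some genes with no call. By setting these were Chga (0.0585 with quantile normalization, 0.0567 with median-of-ratios scaling, 0.0121 for the slope), Per1 (0.0196 with median-of-ratios scaling), Sbsn (0.0109 with median-of-ratios scaling, 0.0911 for the slope), Plk2 (-0.0118 for the slope) and Trp53 (-0.00973 for the slope). Leaving out single libraries gave log2 fold changes from -0.157 to 1.75 for Alox5ap, -0.264 to 0.436 for Arntl, -0.342 to 0.0321 for Ccne1, -0.0333 to 0.155 for Ccng1, -0.0496 to 0.0633 for Chga, -1.06 to 0.223 for Gal, -0.159 to 0.00658 for Mdm2, -0.296 to 0.101 for Per1, -0.120 to 0.118 for Plk2, -0.402 to 0.268 for Sbsn, -0.174 to 0.0542 for Sis, -0.989 to 0.183 for Skp2, -0.0649 to 0.102 for Trp53 and -0.0212 to 0.492 for Wee1. Depth limits the low genes most, and no counting error can be given.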
